A study of Rattus norvegicus with 24 samples.

Results

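The miRNAs described here are rno-miR-224-5p, rno-miR-224-3p, rno-miR-452-5p and rno-miR-452-3p, the mature arms named for the hairpins miR-224 and miR-452. They are 4 of the 1098 miRNAs in the count table (703 known and 395 predicted), and each has a row of its own. They were chosen by name, with these same counts by nucleus and treatment already in view, so their levels by nucleus are given as a description with no test. Male Sprague-Dawley rats, 7 weeks old at purchase, were divided into 4 treatments, and small RNA was sequenced from the hypothalamic paraventricular nucleus (PVN) and the central amygdala (CEA). NC rats had no operation, HT rats had a partial hepatectomy of about 20% of the left liver lobe, and HT+EA rats had the hepatectomy and electroacupuncture at ST36 and SP6 (2/15 Hz, 30 min). The electroacupuncture was given 24 h before the operation and again right after it, in awake, restrained rats. HT+SEA rats had the hepatectomy and needles without current. NC and HT rats were restrained like the others, and the brains were sampled 24 h after the final session. There were 3 libraries per treatment in each nucleus, 24 libraries in all. In all, 12 rats were used. The methods say that brain samples came from different animals but not which rat gave which library, so the nuclei of a treatment may share rats. The labels name the tissue of each library only as brain and give the nucleus in the title.

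A miRNA hairpin is cut to a short duplex, and usually 1 of the arms, 5p or 3p, is kept in the Argonaute complex, where its seed (bases 2 to 8) pairs with target mRNAs. miR-224 and miR-452 are intronic miRNAs of the X-linked gene Gabre in mammals. Gabre encodes the epsilon subunit of the GABA-A receptor, the chloride channel of fast inhibition in the brain. Epsilon has a restricted distribution in rodent brain, with the hypothalamus among its best known sites. The PVN holds the neurons that release corticotropin-releasing hormone at the head of the stress axis, and the CEA is an output station of the amygdala for fear and stress. Gabre mRNA itself was not analysed here.

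The mature miR-224 sequences are shown because the seed is what sets the arms apart, with the seed in capitals, 5′ to 3′, from RefSeq on GRCr8, all on the minus strand.
rno-miR-224-5p: cAAGUCACuagugguuccguuu
rno-miR-224-3p: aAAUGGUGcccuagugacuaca
The 5p arm lies at chrX:155107183-155107204 and the 3p arm at chrX:155107136-155107157. The hairpin that holds both, at chrX:155107130-155107211, is shown with the arms in capitals, so that the 5p arm comes first.
Mir224 hairpin: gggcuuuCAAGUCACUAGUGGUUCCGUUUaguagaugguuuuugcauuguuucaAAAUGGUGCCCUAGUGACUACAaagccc
Mir224 lay inside the annotated span of Gabre and on the same strand. No other of 636 known miRNAs of the count table with a mature sequence in the RefSeq table shared either seed. For miR-452 no sequence is printed, and its position was not analysed here.

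The libraries held 6584345 to 14828269 counts in the PVN and 9463321 to 14913564 in the CEA, and within the PVN the NC and HT libraries were the shallowest, with at most 11050725 counts. Levels are given as CPM, the counts of a miRNA scaled to a library total of 1000000. A miRNA was taken as detected in a library above a floor of 3 counts, which is 0.201 to 0.456 CPM. Marker miRNAs differed between the nuclei. The summed CPM of 9 miRNAs known from epithelium and pituitary was 118 to 265 in the PVN and 27 to 93.8 in the CEA, and 9 of 9 had a higher mean in the PVN. That of 8 miRNAs of ciliated cells and choroid plexus was 3073 to 4645 against 605 to 1966 CPM, with 6 of 8 higher in the PVN. The lists for neurons (103086 to 116969 against 138018 to 162787 CPM, 5 miRNAs), oligodendrocytes (1973 to 3641 against 4333 to 8775 CPM, 4 miRNAs) and vessel wall (28018 to 33344 against 34889 to 40087 CPM, 4 miRNAs) were lower in the PVN, with 0 members of each higher there. Blood and myeloid miRNAs overlapped, at 369 to 559 against 278 to 557 CPM, with 4 of 7 higher in the PVN. No marker in these lists was at 0 over the 24 libraries. In the CEA, NC replicate 1 and HT replicate 2 were each the highest of their group of 3 for rno-miR-298-5p, rno-miR-3547, rno-miR-489-5p, rno-miR-653-5p and rno-miR-7a-5p, miRNAs with higher levels in the PVN. For rno-miR-653-3p this held for NC replicate 1, and HT replicate 1 (2.14 CPM) was above HT replicate 2 (1.22 CPM). Over all miRNAs, CEA HT replicate 1 had the lowest mean correlation with its own group (0.9897, in a range up to 0.997). The part of these cell types in the values below was not tested, and in bulk tissue more cells of a type and more RNA per cell cannot be told apart.

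rno-miR-452-5p was the most abundant of the 4. In the PVN it had 106, 152 and 102 counts in the NC libraries and 105, 105 and 171 in HT. It had 191, 196 and 191 counts in HT+EA and 202, 149 and 230 in HT+SEA. Every PVN library thus held at least 102 reads of it, and the lowest numbers were in NC and HT, the groups with the shallowest PVN libraries. In the CEA it had 31, 14 and 6 counts in NC and 16, 24 and 7 in HT. It had 45, 24 and 38 in HT+EA and 32, 23 and 32 in HT+SEA. The CEA libraries held far fewer reads of it at similar depths, and within NC and within HT they differed widely. The mean level was 14.12 ± 2.05 CPM in the PVN (SD, n = 12, range 10.7 to 17.1) and 1.923 ± 0.922 CPM in the CEA (SD, n = 12, range 0.517 to 3.28).

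rno-miR-224-5p was somewhat lower and had the same contrast of nuclei. In the PVN it had 95, 116 and 82 counts in NC and 92, 85 and 81 in HT. It had 156, 163 and 141 counts in HT+EA and 166, 96 and 104 in HT+SEA. The lowest PVN library held 81 reads, and the single high HT+SEA library was replicate 1. In the CEA it had 11, 17 and 13 counts in NC and 8, 14 and 9 in HT. It had 13, 18 and 27 in HT+EA and 24, 16 and 23 in HT+SEA. These counts were above the floor in every CEA library but low enough that counting alone limits them. The mean level was 10.44 ± 2.41 CPM in the PVN (SD, n = 12, range 6.91 to 14.4) and 1.261 ± 0.391 CPM in the CEA (SD, n = 12, range 0.659 to 1.81).

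The PVN mean was 8.28 times the CEA mean for rno-miR-224-5p and 7.34 times for rno-miR-452-5p. For both, the 12 PVN libraries lay above the 12 CEA libraries, with the lowest PVN library at 3.81 times the highest CEA library for rno-miR-224-5p and at 3.27 times for rno-miR-452-5p. Such a separation was seen for 82 of 898 miRNAs with at least 10 counts (9.13%), and as the members were selected on these values, nothing is read from it. Among 521 miRNAs with a mean of at least 1 CPM, the ratios ranked 5 and 6 from the top. By mean level over the 24 libraries the 2 arms ranked only 399 and 381 of 1098, so they combined a low level with a wide contrast of nuclei. The contrast was present within each treatment. For rno-miR-224-5p the ratio of means was 10.1 in NC, 9.83 in HT, 8.53 in HT+EA and 5.8 in HT+SEA. For rno-miR-452-5p it was 9.09, 9.08, 5.82 and 6.64 in the same order. The CEA means of both arms were higher in the needled groups than in NC and HT, from counts whose intervals are wide.

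**Figure D1:**
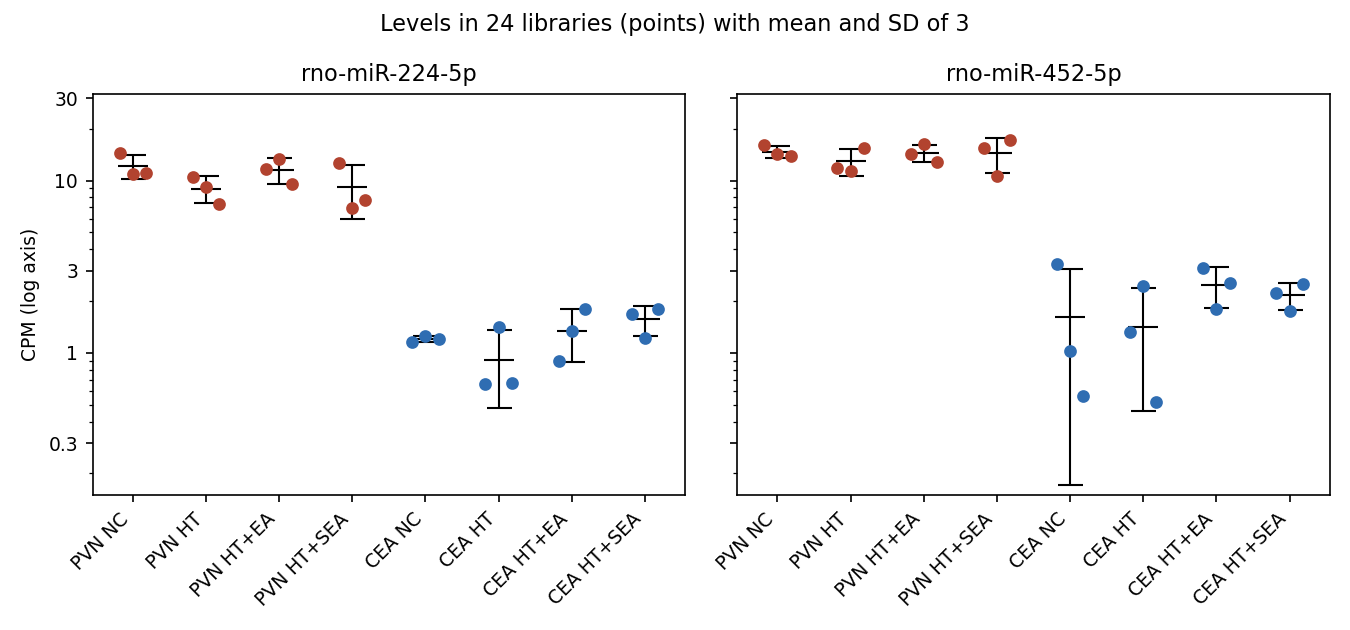
CPM of rno-miR-224-5p (left) and rno-miR-452-5p (right) on a log axis, 1 point for each library, with PVN in red and CEA in blue and black marks for the mean and SD of each group of 3. The PVN libraries sit between 6.91 and 17.1 CPM and the CEA libraries between 0.517 and 3.28 CPM, with the widest spread in CEA NC and CEA HT for rno-miR-452-5p.

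**Figure D2:**
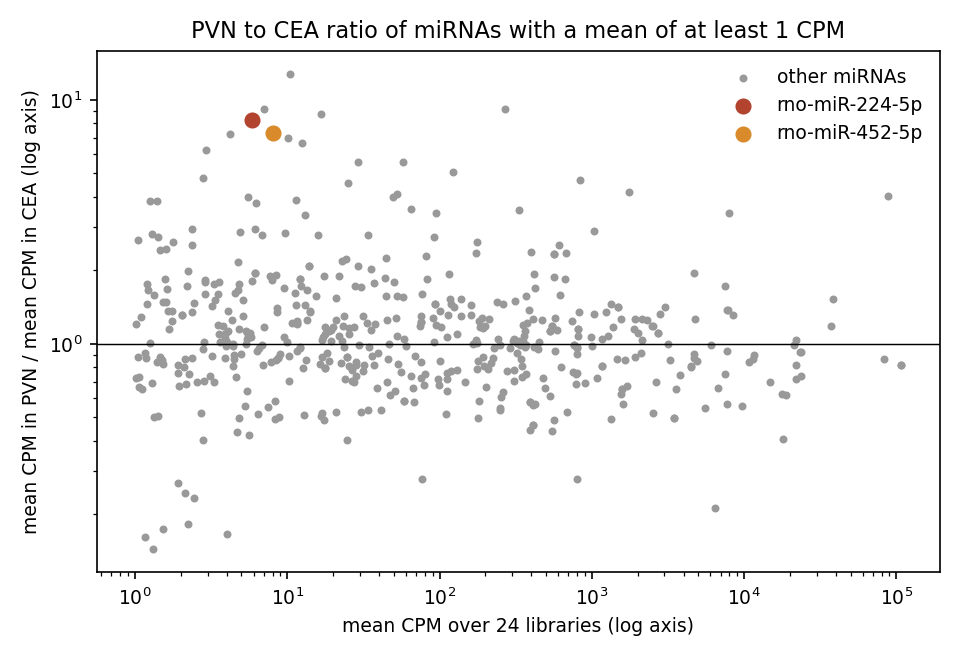
Mean CPM in the PVN divided by that in the CEA, against mean CPM over the 24 libraries, both on log axes, for 521 miRNAs with a mean of at least 1 CPM. The 2 coloured points, at 8.28 and 7.34, lie near the top of the cloud at a low level, and the line marks equal means.

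The 3p arms were barely present. rno-miR-224-3p had 0 counts in 10 of 12 PVN and 11 of 12 CEA libraries, 2 counts each in PVN HT+EA replicates 2 and 3, and 2 in 1 CEA HT+SEA library. rno-miR-452-3p had 0 to 6 counts, and only PVN HT+EA replicate 3, at 6, passed the floor. rno-miR-224-3p was thus at or under the floor in each library and rno-miR-452-3p in each but that one, and no fold is given for them. Summed over 12 libraries, the 3p arm was 0.29% of the miR-224 reads in the PVN (4 of 3p and 1377 of 5p, exact binomial 95% interval 0.079 to 0.74%). In the CEA it was 1.03% (2 and 193 reads, 0.124 to 3.66%). For miR-452 the shares were 1.04% in the PVN (20 and 1900 reads, 0.637 to 1.6%) and 2.67% in the CEA (8 and 292 reads, 1.16 to 5.19%). These intervals cover counting error only, and those of the nuclei overlap for each hairpin. In both nuclei the 5p arm made up nearly all reads of each hairpin.

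The effect of hepatectomy, and of acupuncture with or without current, was tested within each nucleus with edgeR's quasi-likelihood test over the miRNAs with at least 1 count, and a miRNA was called where the p before adjustment was under 0.05. Where a fold change is said to be past the threshold, this is the threshold meant. None of the 4 members was called in any of the 8 comparisons. The lowest p of rno-miR-224-5p and rno-miR-452-5p over these and the interaction tests was 0.0526, and their lowest Benjamini-Hochberg adjusted p was 0.523. rno-miR-224-3p had a fit in 5 tests and rno-miR-452-3p in 10, with 0 calls.

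In the PVN, hepatectomy went with lower rno-miR-224-5p that did not pass the test. The level was 14.4, 10.9 and 11.1 CPM in the NC libraries and 10.5, 9.16 and 7.33 CPM in the HT libraries. The highest HT and the lowest NC library lay within each other's counting intervals (8.44 to 12.8 and 8.98 to 13 CPM). The log2 fold change was -0.46 (SE 0.25, 95% interval -0.96 to 0.04, adjusted p = 0.523), in a comparison in which 10.9% of the miRNAs tested were called. Without PVN HT replicate 1 it was -0.62 and past the threshold (adjusted p = 0.383), and without PVN HT replicate 3 it was -0.33. A fit over all 12 PVN libraries gave -0.49 (past the threshold, adjusted p = 0.329). The epithelium and pituitary markers moved the same way, with 7 of 9 called lower and sums of 164 to 265 CPM in NC and 118 to 150 CPM in HT. Of the markers of ciliated cells and choroid plexus 2 of 8 were called lower, with sums of 3867 to 4645 CPM in NC and 3073 to 3321 CPM in HT, and 2 of 5 neuronal miRNAs were called higher. Of the blood and myeloid markers 2 of 7 were called lower, and 1 of 4 oligodendrocyte and 1 of 4 vessel wall markers higher. The part of these cell types was not tested.

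Electroacupuncture against HT in the PVN gave the opposite sign for rno-miR-224-5p. The HT+EA libraries held 11.6, 13.4 and 9.51 CPM, and 1 of them lay inside the HT range. The log2 fold change was 0.38 (SE 0.22, 95% interval -0.07 to 0.84, adjusted p = 0.527), where 11.4% of miRNAs were called. This comparison shares its HT libraries with the one above, so the opposite signs are not separate observations. Without PVN HT replicate 1 it was 0.55 (past the threshold, adjusted p = 0.216), and it was 0.22 without HT replicate 3 and 0.24 without HT+EA replicate 2. With the replicate number as a block it was 0.39 and past the threshold (adjusted p = 0.365). Of the epithelium and pituitary markers, 7 of 9 were called higher, with sums of 149 to 241 CPM in HT+EA. Of the neuronal miRNAs 2 of 5 were called lower, and of the oligodendrocyte miRNAs 1 of 4 was called higher and 2 lower. Among 7 blood and myeloid markers 1 was called higher and 1 lower, and 0 of 7 markers of ciliated cells and choroid plexus tested were called. The part of these cell types was not tested.

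Needling without current gave a fitted difference from HT near 0 for rno-miR-224-5p in the PVN, with 1 library apart. The HT+SEA libraries held 12.7, 6.91 and 7.73 CPM. The log2 fold change against HT was 0.03 (SE 0.24, 95% interval -0.46 to 0.51, adjusted p = 0.982), where 8.3% of miRNAs were called, and it was -0.29 without HT+SEA replicate 1 and -0.15 without HT replicate 3. In the same comparison 5 of 9 epithelium and pituitary markers, 2 of 8 markers of ciliated cells and choroid plexus and 1 of 7 blood and myeloid markers were called higher. Lower calls were made for 2 of 5 neuronal and 1 of 4 oligodendrocyte miRNAs. HT+EA against HT+SEA gave 0.33 (SE 0.17, 95% interval -0.004 to 0.66, adjusted p = 0.707), where 7.14% were called. Without HT+SEA replicate 1 this was 0.62 (past the threshold, adjusted p = 0.0745), and without HT+EA replicate 3 it was 0.47 (past the threshold, adjusted p = 0.234). Of the blood and myeloid markers 1 of 7 was called higher and 2 lower here, with 1 of 8 ciliated and choroid plexus and 1 of 4 oligodendrocyte markers lower and 1 of 4 vessel wall markers higher, and their part was not tested. The fold change was 0.18 without HT+SEA replicate 2, 0.21 without HT+EA replicate 2 and 0.25 without HT+SEA replicate 3. With all 6 libraries kept, DESeq2 size factors (adjusted p = 0.692), a robust spread (adjusted p = 0.636) and the replicate block (adjusted p = 0.47) also took it past the threshold. The call thus turned on single libraries and on settings of the fit, and over 14 alternatives the adjusted p ran from 0.0745 to 1.

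rno-miR-452-5p varied less across the treatments in the PVN. The NC libraries held 16.1, 14.2 and 13.9 CPM and the HT libraries 11.9, 11.3 and 15.5 CPM. HT replicate 3, the library lowest of the 6 for rno-miR-224-5p, was the highest HT library for rno-miR-452-5p. The log2 fold change of HT against NC was -0.23 (SE 0.24, 95% interval -0.70 to 0.25, adjusted p = 0.817). The HT+EA libraries held 14.2, 16.2 and 12.9 CPM and the HT+SEA libraries 15.5, 10.7 and 17.1 CPM. Against HT these gave 0.19 (SE 0.19, 95% interval -0.20 to 0.59, adjusted p = 0.73) and 0.17 (SE 0.20, 95% interval -0.24 to 0.58, adjusted p = 0.828). Leaving out 1 library moved the first to 0.08 (without HT+EA replicate 2) or 0.30 (without HT replicate 3). It moved the second to 0.03 (without HT+SEA replicate 3), 0.05 (without HT replicate 2) or 0.30 (without HT+SEA replicate 2), and HT against NC to -0.37 (without HT replicate 3). HT+EA against HT+SEA gave -0.01 (SE 0.16, 95% interval -0.31 to 0.30, adjusted p = 1), from -0.17 without HT+SEA replicate 2 to 0.15 without HT+SEA replicate 3. These groups overlapped in each comparison.

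In the CEA the counts allowed only wide intervals. rno-miR-224-5p held 1.16, 1.25 and 1.21 CPM in NC and 0.659, 1.42 and 0.665 CPM in HT. The HT+EA libraries held 0.893, 1.34 and 1.81 CPM and the HT+SEA libraries 1.68, 1.22 and 1.81 CPM. HT spanned a range in which the NC libraries lay, and HT replicate 2 was higher than the other two. The log2 fold change of HT against NC was -0.37 (SE 0.55, 95% interval -1.44 to 0.71, adjusted p = 0.989), with 3.82% of miRNAs called. HT+EA against HT gave 0.45 (SE 0.48, 95% interval -0.52 to 1.43, adjusted p = 0.897, 5.28% called), and HT+SEA against HT gave 0.71 (SE 0.51, 95% interval -0.31 to 1.73, adjusted p = 0.956, 4.7% called). HT+EA against HT+SEA gave -0.25 (SE 0.42, 95% interval -1.10 to 0.61, adjusted p = 0.997, 2.24% called). Leaving out 1 library moved the fold change of HT against NC to -0.69 (without HT replicate 2) or -0.09 (without HT replicate 3). It moved that of HT+EA against HT to 0.80 (without HT replicate 2), 0.23 (without HT replicate 3) or 0.19 (without HT+EA replicate 3). For HT+SEA against HT it gave 1.06 without HT replicate 2 and 0.47 without HT replicate 3, and for HT+EA against HT+SEA -0.53 without HT+EA replicate 3 and -0.02 without HT+EA replicate 1. Markers of ciliated cells and choroid plexus were called lower in HT against NC (3 of 8) and higher in HT+SEA against HT (5 of 8), with 0 of 8 called in HT+EA against HT and 1 of 8 lower in HT+EA against HT+SEA. Of the epithelium and pituitary markers, 2 of 9 were called lower in HT against NC and 2 of 9 higher in each of HT+EA and HT+SEA against HT. Of the blood and myeloid markers, 3 of 7 were called lower in HT against NC, 2 of 7 higher in HT+SEA against HT, and 3 of 7 lower in HT+EA against HT+SEA, while HT+EA against HT had 1 higher and 1 lower. An oligodendrocyte miRNA (1 of 4) was called lower in each of HT against NC, HT+EA against HT and HT+EA against HT+SEA. A neuronal miRNA (1 of 5) was called lower in HT+EA against HT. The part of these cell types was not tested.

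rno-miR-452-5p in the CEA had the least even replicates. The NC libraries held 3.28, 1.03 and 0.56 CPM and the HT libraries 1.32, 2.43 and 0.517 CPM. The HT+EA libraries held 3.09, 1.79 and 2.55 CPM and the HT+SEA libraries 2.23, 1.76 and 2.52 CPM. NC replicate 1 and HT replicate 2 stood above the others of their groups, and NC replicate 1 was the highest of the 12 CEA libraries. The log2 fold change of HT against NC was -0.12 (SE 0.48, 95% interval -1.07 to 0.82, adjusted p = 1), and it turned to 0.87 without NC replicate 1 and to 0.36 without HT replicate 3 (adjusted p of 0.886 and 0.913). HT+EA against HT gave 0.70 (SE 0.44, 95% interval -0.19 to 1.59, adjusted p = 0.897), and it was 1.19 without HT replicate 2 (past the threshold, adjusted p = 0.411), 0.25 without HT replicate 3 and 0.49 without HT+EA replicate 1. HT+SEA against HT gave 0.54 (SE 0.47, 95% interval -0.40 to 1.48, adjusted p = 0.956), with 1.03 without HT replicate 2 and 0.08 without HT replicate 3. HT+EA against HT+SEA gave 0.16 (SE 0.37, 95% interval -0.58 to 0.91, adjusted p = 0.997).

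A difference in effect between the nuclei was tested as an interaction (effect in the PVN minus that in the CEA). For HT against NC it was -0.16 on the log2 scale for rno-miR-224-5p (95% interval -1.20 to 0.88) and -0.18 for rno-miR-452-5p (95% interval -1.18 to 0.81), with 4.98% of miRNAs called. For HT+EA against HT it was -0.14 (95% interval -1.08 to 0.80) and -0.58 (95% interval -1.53 to 0.37), with 1.9% called. None of these 4 values passed the test, each with an adjusted p of 1. The values for HT against NC changed sign without CEA HT replicate 2 (0.26 for rno-miR-224-5p and 0.39 for rno-miR-452-5p), and that of rno-miR-452-5p also without CEA NC replicate 3 (0.27) or 2 (0.13). For rno-miR-224-5p the value was 0.05 without PVN HT replicate 3, and in HT+EA against HT it ran from -0.39 (without CEA HT replicate 2) to 0.18 (without CEA HT replicate 3). These fits take the 12 libraries as separate animals, and with libraries of the same treatment and number taken as 1 animal the values were -0.15, -0.28, -0.12 and -0.62, with 0 called by edgeR. For rno-miR-452-5p the interaction passed the unadjusted threshold, for HT against NC, without CEA NC replicate 1 (-1.08, adjusted p = 0.671) and, for HT+EA against HT, without CEA HT replicate 2 (-0.98, adjusted p = 1). The latter value was -0.02 without CEA HT replicate 3 and -0.28 without CEA HT+EA replicate 1.

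**Figure D3:**
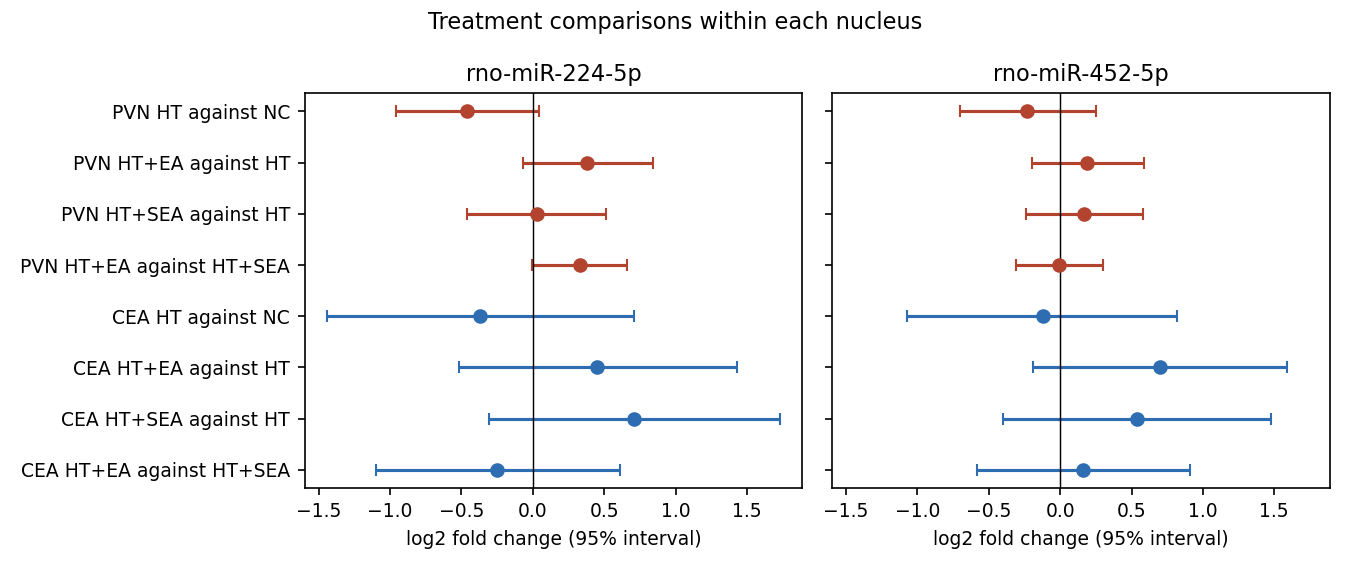
Log2 fold changes of rno-miR-224-5p (left) and rno-miR-452-5p (right) in the 8 comparisons within a nucleus, with 95% intervals from edgeR, PVN in red and CEA in blue. Each interval crosses 0, narrowly for rno-miR-224-5p in PVN HT+EA against HT+SEA (-0.004 to 0.66), and the CEA intervals are wider than those of the PVN.

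The ratio of rno-miR-452-5p to rno-miR-224-5p counts was 1.12 to 2.21 in the PVN, with a median of 1.24, and above 1 in 12 of 12 libraries. It was highest in HT+SEA replicate 3 and HT replicate 3. In the CEA it ran from 0.462 in NC replicate 3 to 3.46 in HT+EA replicate 1, with a median of 1.4, and was above 1 in 9 of 12 libraries. The counting intervals of the 2 arms overlapped in 9 of 12 PVN and 10 of 12 CEA libraries, including the 3 CEA libraries with a ratio under 1. Spread between libraries exceeded counting error for rno-miR-452-5p in the CEA (SD 0.922 CPM, of which counting gives 0.395) and less so for rno-miR-224-5p (SD 0.391 and 0.318 CPM). In the PVN the SDs were 2.41 CPM for rno-miR-224-5p and 2.05 CPM for rno-miR-452-5p, against 1.01 and 1.16 CPM from counting.

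Within a nucleus the 2 arms were not shown to vary together. On the log2(CPM + 0.5) scale Pearson's r was 0.38 over the 12 PVN libraries (permutation p = 0.218) and Spearman's rho was 0.41 (permutation p = 0.193). Over the 12 CEA libraries r was 0.46 (permutation p = 0.129) and rho was 0.34 (permutation p = 0.277). Adjusted over these 2 relations, p was 0.218 for both r and 0.277 for both rho. Without the 2 libraries farthest from the median r was 0.31 in the PVN and 0.11 in the CEA, where it rested on HT replicates 1 and 3. With the treatment means taken out, r was 0.30 and 0.31.

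The miRNAs whose pattern was most like that of rno-miR-452-5p were found by Pearson's r on log2(CPM + 0.5) among 519 other miRNAs with a mean of at least 1 CPM. Over the 24 libraries these were rno-miR-298-5p (r = 0.983), rno-miR-653-5p (0.979), rno-miR-653-3p (0.976), rno-miR-7a-5p (0.974) and rno-miR-7b (0.974). miR-7a is known for its high level in hypothalamus and pituitary, and miR-653 comes from an intron of the calcitonin receptor gene. rno-miR-224-5p ranked 26, at 0.951. All of these were higher in the PVN, at 5.05 times the CEA mean for rno-miR-298-5p, 9.19 for rno-miR-653-5p, 12.7 for rno-miR-653-3p, 4.04 for rno-miR-7a-5p and 3.43 for rno-miR-7b, and the contrast of nuclei dominates this measure.

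With the 8 group means taken out, rno-miR-298-5p (r = 0.791), rno-miR-3547 (0.777), rno-miR-653-5p (0.770), rno-miR-653-3p (0.718) and rno-miR-489-5p (0.713) came first, and rno-miR-224-5p ranked 89, at 0.278. All miRNAs of a library share its depth and dissection, so the r values are descriptions. These 5 were also higher in the PVN, with rno-miR-3547 at 7 and rno-miR-489-5p at 8.7 times the CEA mean. For rno-miR-653-5p, r with rno-miR-452-5p was 0.86 within the 12 CEA libraries and 0.48 within the 12 PVN libraries. With rno-miR-224-5p it was 0.31 within the CEA and 0.53 within the PVN. For rno-miR-298-5p, r was 0.90 with rno-miR-452-5p and 0.64 with rno-miR-224-5p within the CEA, and 0.26 and 0.51 within the PVN. For rno-miR-7a-5p it was 0.74 and 0.43 within the CEA, and 0.47 and 0.91 within the PVN. For rno-miR-3547 it was 0.86 and 0.40 within the CEA, and 0.57 and -0.33 within the PVN. With rno-miR-489-5p the values were 0.78 and 0.12 within the CEA, and 0.08 and 0.38 within the PVN. With rno-miR-653-3p they were 0.76 and 0.12 within the CEA, and 0.41 and 0.35 within the PVN. With rno-miR-7b they were 0.72 and 0.19 within the CEA, and 0.67 and 0.33 within the PVN.

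The CEA libraries differed widely in rno-miR-653-5p. It held 93.1, 13 and 18.1 CPM in NC and 31.4, 64.5 and 21.3 CPM in HT. It held 81.3, 75.1 and 52.5 CPM in HT+EA and 79.6, 59.3 and 44.1 CPM in HT+SEA. NC replicate 1 and HT replicate 2, the high libraries of their groups for rno-miR-452-5p, were also the high ones here, and the 4 libraries lowest in rno-miR-653-5p were the 4 lowest in rno-miR-452-5p. In the PVN rno-miR-653-5p ran from 328 to 599 CPM, so the highest CEA library stayed under the lowest PVN library. Its part in the CEA values of rno-miR-452-5p was not tested.

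**Figure D4:**
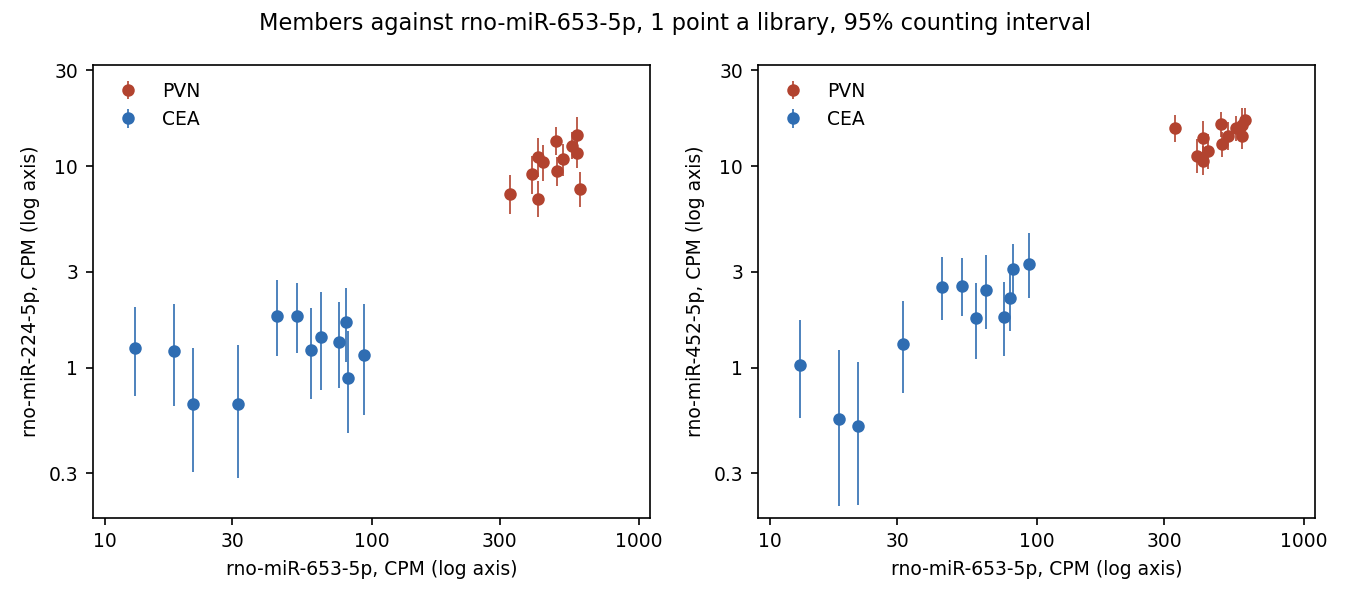
CPM of rno-miR-224-5p (left) and rno-miR-452-5p (right) against CPM of rno-miR-653-5p, all on log axes, 1 point for each of 24 libraries, with PVN in red, CEA in blue and 95% counting intervals as bars. Within the CEA, rno-miR-452-5p is lowest in the libraries with 13 to 31.4 CPM of rno-miR-653-5p, and the 2 lowest values of rno-miR-224-5p (0.659 and 0.665 CPM) also lie there, beside values of 1.25 and 1.21 CPM.

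Other miRNAs from introns of receptor genes were compared with the Gabre pair. The list held 13 miRNAs from the calcitonin receptor gene Calcr and the serotonin 2C receptor gene Htr2c, and 10 had a row. Of these, 8 had a higher mean in the PVN. The 4 Calcr miRNAs, among them rno-miR-489-5p (29.7 ± 3.61 against 3.41 ± 1.94 CPM, SD, n = 12), rno-miR-653-5p and rno-miR-653-3p, were 8.7 to 12.7 times higher, beside 8.28 and 7.34 for the Gabre pair, and their nuclei did not overlap. The Htr2c miRNAs did not share this: rno-miR-448-3p was at 35.3 ± 5.93 against 27.1 ± 12.4 CPM, and rno-miR-1298, the most abundant of the list, was at 2809 ± 165 against 4284 ± 2466 CPM. The least abundant, rno-miR-764-3p, was at 1.83 ± 0.743 against 1.23 ± 0.39 CPM. The list's summed CPM overlapped between the nuclei (3120 to 3790 and 2246 to 10783 CPM).

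Across treatments rno-miR-653-5p was the member of this list called in the PVN in HT against NC (lower), HT+EA against HT (higher) and HT+SEA against HT (higher), each time 1 of 10 tested, beside 10.9%, 11.4% and 8.3% of all miRNAs. In PVN HT+EA against HT+SEA rno-miR-1912-3p was called lower (1 of 10, beside 7.14%). In the CEA rno-miR-1298 and rno-miR-1912-3p were called lower in HT against NC (2 of 10, beside 3.82%), and rno-miR-448-3p and rno-miR-653-5p higher in HT+EA against HT (2 of 10, beside 5.28%). All 4 of these were called higher in CEA HT+SEA against HT (4 of 10, beside 4.7%), and rno-miR-1298 lower in HT+EA against HT+SEA (1 of 10, beside 2.24%). The list's median log2 fold change lay between -0.08 and 0.40 over the 8 comparisons, beside medians of all miRNAs tested between -0.02 and 0.02. In the interaction tests edgeR called 0 of 10, beside 4.98% and 1.9% of all miRNAs. Among the other hairpins of the RefSeq table the nearest to Mir224 was Mir105, in Gabra3, another GABA-A subunit gene. Its miRNA rno-miR-105, named after its values were seen, was at 0.631 ± 0.19 CPM in the PVN and 0.3 ± 0.233 CPM in the CEA (SD, n = 12), and these ranges overlapped.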

How the data were processed

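The authors deposited raw counts per miRNA for 24 libraries, used as deposited. Per the paper, libraries were made with a NEBNext small RNA kit and reads were filtered and mapped to the rat genome. HISAT2 and featureCounts are named for the sequencing as a whole, and how miRNA reads were counted, or shared among similar miRNAs, is not given in the sources used here. The submitters' notes list GRCh38 and hg38, which are human builds, so no position is taken from them. A further 24 columns of per-library values, which sum to 1000000, were not used. The series' design text calls the animals mouse, whereas the samples are labelled rat.

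The 4 members, the lists and the tests were chosen with earlier results of these data known. Groups were taken from titles. For a comparison, 6 libraries entered the edgeR 4.0.16 quasi-likelihood fit after TMM (glmQLFit, glmQLFTest; R 4.3.3, limma 3.58.1), with every miRNA that had a count of 1 or more, and 12 libraries entered an interaction. The SE was taken from the fold change and its F statistic. The estimated prior degrees of freedom ran from 17.9 to infinity, so the tests lean on the spread of all miRNAs. An exact permutation test of 3 against 3 cannot go below p = 0.1. p-values measure the spread between libraries, and no labels give animals. Alternatives were library totals only, DESeq2 1.42.0 and its size factors, filters, robust spread, all 12 libraries of a nucleus, a replicate block, and leaving out each library. Same-numbered libraries deviated together (r of 0.28, 0.24 and 0.41 over 532 miRNAs) in CEA HT and NC, the only 1 of the 8 comparisons in which each r was over 0.1. Between the nuclei each r was over 0.1 in NC (0.19 to 0.30) and HT+SEA (0.30 to 0.56) but not in HT or HT+EA, so a block across the nuclei was added after seeing the data.

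CPM is a count scaled to a library total of 1000000, intervals of counts and shares (95%) cover counting error only, and correlations used 100000 permutations (two-sided, scipy 1.17.1). The named miRNAs are the 4 members, the 5 most like the most abundant member by each of 2 measures, and list members that were called or were the most or least abundant, plus rno-miR-105, which was chosen after its values were seen. For the marker lists, summed levels are given. Of 703 known miRNAs, 637 matched a RefSeq mature sequence on GRCr8, including 2 of the 4 members. Scripts ran in Python 3.11.15, with pandas 2.3.3, numpy 2.4.6 and, for plots, matplotlib 3.10.9.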

Additional observations from a re-analysis of the deposited data

How the results depend on the processing

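Of 300 log2 fold changes of rno-miR-224-5p and rno-miR-452-5p under alternatives, 265 kept direction and side of the threshold, 12 passed it only under the alternative and 23 had the other sign, and the lowest adjusted p was 0.0745. The nucleus ratio kept its direction under the alternatives computed for it, at 7.09 to 10.1 for rno-miR-224-5p and 6.51 to 9.09 for rno-miR-452-5p. Within single treatments it was as low as 5.8 for rno-miR-224-5p (HT+SEA) and 5.82 for rno-miR-452-5p (HT+EA). One member in place of 0, rno-miR-224-5p, was called in PVN HT against NC with all 12 libraries of the nucleus, in PVN HT+EA against HT with the replicate block (0.39, adjusted p = 0.365), and in PVN HT+EA against HT+SEA with DESeq2 size factors, a robust spread or the replicate block (0.33, 0.33 and 0.35). Same-numbered libraries were not shown to be paired there, and in CEA HT against NC, where they deviated together, the block left both uncalled. Leaving out 1 library gave 0 to 1 members called in these comparisons, in CEA HT+EA against HT and in both interactions.

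Signs changed near 0 for rno-miR-224-5p in PVN HT+SEA against HT with a filter by expression (-0.0008), for rno-miR-452-5p with the replicate block in PVN HT+EA against HT+SEA (0.002) and CEA HT against NC (0.01), and for both in the interaction with HT against NC on library totals (0.004 and 0.003). Leaving out 1 library, rno-miR-224-5p ran from -0.29 to 0.18 in PVN HT+SEA against HT, from -0.34 to 0.26 in the interaction with HT against NC and from -0.39 to 0.18 in that with HT+EA against HT. rno-miR-452-5p ran from -0.17 to 0.15 in PVN HT+EA against HT+SEA, from -0.60 to 0.87 in CEA HT against NC, from -0.03 to 0.36 in CEA HT+EA against HT+SEA and from -1.08 to 0.39 in the interaction with HT against NC. For the interactions the sign turned without CEA HT replicate 2 (0.26 and 0.39 for HT against NC), CEA NC replicate 2 or 3 (0.13 and 0.27, rno-miR-452-5p), PVN HT replicate 3 (0.05), PVN HT replicate 1 (0.13), PVN HT+EA replicate 3 (0.08), CEA HT replicate 3 (0.18) and CEA HT+EA replicate 3 (0.16), the last 5 for rno-miR-224-5p. The cause of these changes was not tested, beyond the smaller number of libraries.

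Counts of miRNAs called, which were 107, 112, 83 and 71 in the PVN and 38, 53, 47 and 23 in the CEA in the order of the report, and 53 and 20 for the interactions, moved by over 1.5 times under some settings. At an adjusted p under 0.05 they were 32, 10, 2 and 27, then 2, 1, 4 and 0, and 2 and 0. With a filter by expression they were 65 in PVN HT against NC, 47 in PVN HT+SEA against HT, 7, 22, 11 and 9 in the CEA, and 12 and 5 for the interactions. With DESeq2 they were 51 and 47 in the PVN comparisons with HT+SEA and 7, 26, 21 and 8 in the CEA. With at least 10 counts they were 9, 30, 21 and 12 in the CEA and 23 for the interaction with HT against NC. All 12 libraries gave 45 in PVN HT+EA against HT+SEA, and the replicate block 31 in CEA HT+SEA against HT. Leaving out 1 library gave 25 to 94 in PVN HT+SEA against HT, 18 to 66, 25 to 70, 17 to 58 and 15 to 37 in the CEA, and 34 to 74 and 14 to 50 for the interactions. For the 3p arms no log2 fold change is given, as rno-miR-452-3p passed the floor in 1 library and rno-miR-224-3p in 0.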
